A study of Homo sapiens with 6 samples.

Results

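The genes described here are 10 genes of the TGF-beta and BMP pathway, namely the ligands TGFB1 and TGFB2, the receptor TGFBR2, the decoy receptor BAMBI, the signal transducer SMAD3, the inhibitory SMADs SMAD6 and SMAD7, and the ID genes ID1, ID2 and ID3. They were chosen by symbol, with earlier results of these data known, and all 10 were rows of a count table of 33451 genes. The table held mRNA-seq of MDA-MB-453, an established human breast cancer cell line, with 3 libraries of each of 2 groups. The experimental group (25(OH)D) was cultured for 5 days with 100 nM 25-hydroxyvitamin D, the main circulating form of vitamin D, and the control group for 5 days with its solvent. All libraries came from the same line, grown in DMEM with fetal bovine serum, so both groups shared the growth factors of the serum. The question was how a circulating level of 25(OH)D changed gene expression in these cells, and in particular the genes through which they send, receive and limit TGF-beta and BMP signals.

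TGF-beta and BMP ligands are secreted dimers that bring a type II and a type I receptor together at the cell surface. TGF-beta receptors phosphorylate SMAD2 and SMAD3, BMP receptors phosphorylate SMAD1, SMAD5 and SMAD9, and both sets enter the nucleus with SMAD4. Several of the genes they switch on, SMAD6, SMAD7 and BAMBI among them, encode inhibitors of the same signal, and the ID genes are classical direct targets of BMP signalling. In breast epithelium TGF-beta is known as an inhibitor of growth, and in advanced breast tumours as a promoter of invasion.

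The libraries held between 33268860 and 40928176 counts. In every library, between 66.0% and 68.0% of genes with low counts had an even count, as when both mates of a read pair are counted, so a count of 20 may stand for 10 fragments. The share of counts from mitochondrial genes was 7.85% to 7.99% in control and 8.89% to 9.24% in 25(OH)D, and its part in the results below was not tested. The epithelial markers EPCAM, KRT8 and GATA3 were among 12 listed markers that summed to 4880 to 5020 CPM in control and 5440 to 5490 CPM in 25(OH)D, with ESR1 at 0 to 4 and PGR at 0 to 8 counts (CPM stands for counts per 1000000 counts of a library, on library sizes scaled by TMM factors). Of 15 fibroblast and mesenchymal markers, COL3A1 and POSTN had no row in the table and LUM and THY1 had 3 counts or fewer. The list summed to 45.5 to 48.8 CPM in control and 36.2 to 39.1 CPM in 25(OH)D, carried by COL1A1, which was lower at 33.1 ± 1.19 against 37.5 ± 1.39 CPM (log2 -0.18, adjusted p = 0.0320), and CDH2, which fell from 8.60 ± 0.597 to 3.03 ± 0.186 CPM (log2 -1.50, adjusted p = 3.74e-07). The 5 endothelial markers summed to less than 0.5 CPM in every library, and CDH5 had no row in the table. The 8 leukocyte markers summed to 4.56 to 6.1 CPM in control and 13.6 to 19.6 CPM in 25(OH)D, carried by CD68, while CD3E and MS4A1 had 3 counts or fewer. The part of these markers in the results was not tested. The labels do not say whether replicates were separate cultures, so the p-values measure the spread between these libraries, which may be technical.

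Of the 10 genes, 6 were higher after 25(OH)D (TGFB2, TGFBR2, SMAD3, ID2, ID3 and BAMBI), 3 were lower (TGFB1, SMAD6 and ID1) and SMAD7 did not pass the test, at an adjusted p under 0.05 over the 18183 genes tested. The treatment changed many genes: 33.8% of all genes tested were called, 17.3% higher and 16.5% lower, against 90.0% of the 10 genes. The median log2 fold change was 0.39 over the 10 genes and -0.01 over all genes tested. As the 10 genes were chosen with earlier results of these data known, these contrasts with all genes tested are not independent of that choice. Each of the 10 genes had its treated libraries all on one side of its control libraries, above for 6 genes and below for 4. That was also so for 45.7% of all genes tested, 22.8% higher and 22.9% lower. A log2 fold change over 1 in size, with an unadjusted p under 0.05, was reached by TGFB2, TGFBR2 and BAMBI in the upward and ID1 in the downward direction, and by 6.65% of all genes tested (4.02% higher, 2.63% lower). As the cells were measured in bulk, a change in the number of cells expressing a gene and a change in RNA per cell cannot be told apart.

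**Figure D1:**
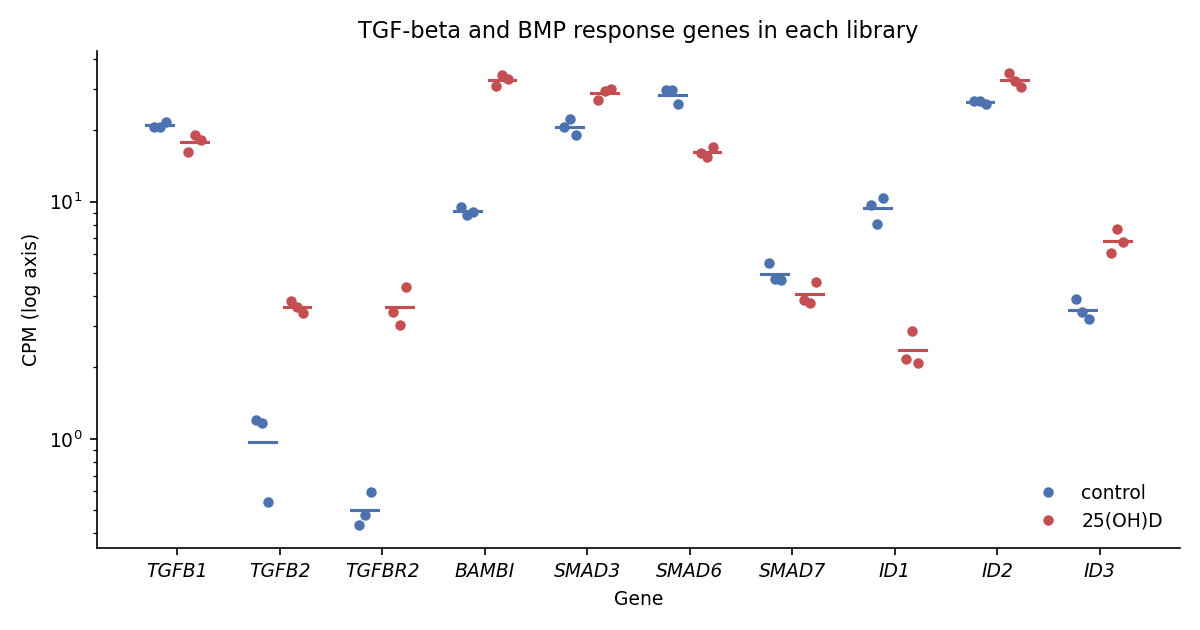
Expression of the 10 genes in each library, in CPM on a log axis, with points for libraries, a bar for the group mean, control in blue and 25(OH)D in red. The 3 control and the 3 treated points are apart for every gene, by the widest relative gap for TGFBR2 and by a narrow one for SMAD7, for which the closest libraries were at 4.67 and 4.60 CPM.

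**Figure D2:**
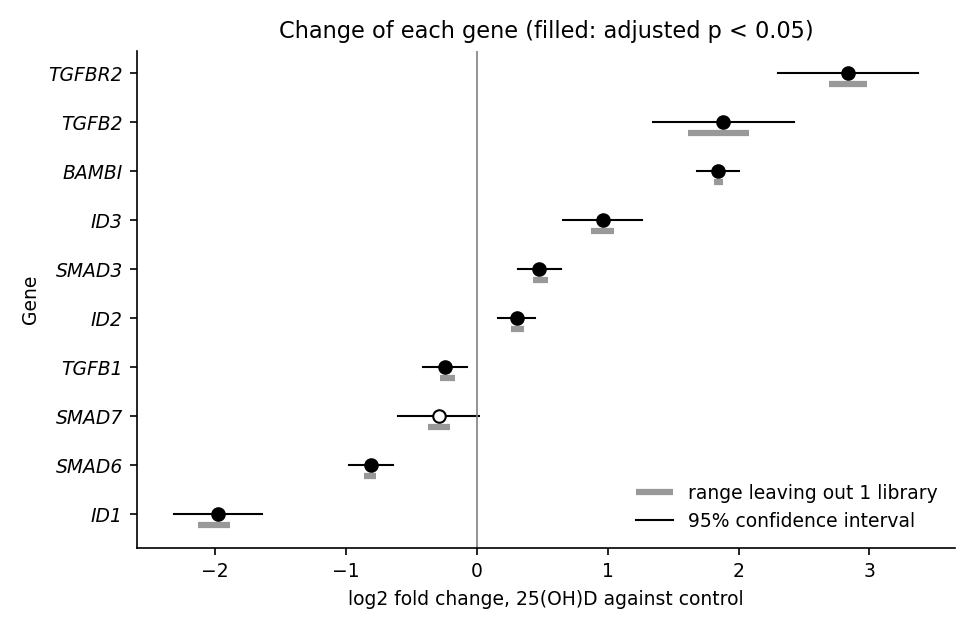
Log2 fold change of each gene, 25(OH)D against control, with its 95% confidence interval as a black line and the range on leaving out 1 library as a grey bar; filled points passed an adjusted p under 0.05. The values run from -1.98 for ID1 to 2.84 for TGFBR2, and only SMAD7 has an open point.

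The sequence upstream of the start site is shown for the 4 genes with the largest changes, because they moved in opposite directions within 1 pathway. RefSeq start sites matched all 10 genes, with 17 start sites in all, and 250 bases before each were searched on both strands for CAGAC (a SMAD-binding element), GGCGCC (a GC-rich SMAD element of BMP targets) and a vitamin D response element, taken as a direct repeat, with 3 bases between, in which each copy was the word AGGTCA, or the word GGGTCA, or else the word AGTTCA, or else the word GGTTCA. The sequences below, from RefSeq on GRCh38.p14, run 5′ to 3′ on the strand of the gene, all of them the plus strand, end before the first exon base of the gene in the table, and have CAGAC and GGCGCC in capitals. They cover chr10:28677271-28677341 for BAMBI, chr1:218345086-218345335 for TGFB2, chr3:30606106-30606355 for TGFBR2 (the first of 2 start sites) and chr20:31605039-31605282 for ID1.
BAMBI: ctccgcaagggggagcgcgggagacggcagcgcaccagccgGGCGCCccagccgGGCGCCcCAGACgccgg
TGFB2: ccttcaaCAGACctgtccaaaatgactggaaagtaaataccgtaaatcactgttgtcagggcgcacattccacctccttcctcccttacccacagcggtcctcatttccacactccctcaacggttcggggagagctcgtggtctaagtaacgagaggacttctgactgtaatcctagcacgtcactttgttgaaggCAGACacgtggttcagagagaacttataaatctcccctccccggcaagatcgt
TGFBR2: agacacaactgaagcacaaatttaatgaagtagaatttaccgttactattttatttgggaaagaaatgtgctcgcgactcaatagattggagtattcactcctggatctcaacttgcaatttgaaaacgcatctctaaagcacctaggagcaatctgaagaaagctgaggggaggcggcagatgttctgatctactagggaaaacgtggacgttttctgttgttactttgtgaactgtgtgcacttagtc
ID1: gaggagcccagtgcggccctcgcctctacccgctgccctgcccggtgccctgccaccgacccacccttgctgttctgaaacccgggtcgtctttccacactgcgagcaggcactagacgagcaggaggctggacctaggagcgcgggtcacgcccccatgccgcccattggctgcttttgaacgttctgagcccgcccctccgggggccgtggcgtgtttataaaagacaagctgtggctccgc

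The BAMBI stretch held GGCGCC in 2 places and CAGAC in 1, a further GGCGCC began in its last bases and ran on into the exon of the table, and a CAGAC on the other strand lay inside that exon. The TGFB2 stretch held CAGAC in 2 places, 161 of its 250 bases lay in exons of the antisense gene TGFB2-AS1, and its start site lay upstream of the gene start in the table. Neither the TGFBR2 nor the ID1 stretch held any of these letters. CAGAC was found in 7 of the 17 windows of the 10 genes (of BAMBI, ID3, SMAD3, SMAD7 and TGFB2), close to its share of 38.0% in all 35114 windows of the same length. GGCGCC was found in 2 of the 17 windows (of BAMBI and SMAD3), and in 16.4% of all windows. In the 15110 windows of genes tested, the shares were 36.7% for CAGAC and 24.1% for GGCGCC. All 250 bases of the ID3 window, its CAGAC among them, lay in exons of ID3 in the table. The repeat with 3 bases between was in none of the 17 windows of these genes and in 0.0655% of all windows. A match of letters is a description, not a site of binding.

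Among the ligands, TGFB2 rose from a low level and TGFB1 was slightly lower. TGFB2 (chr1:218346235-218444619, plus strand) was at 1.20, 1.16 and 0.543 CPM in control and at 3.81, 3.59 and 3.41 CPM in 25(OH)D. Every treated library was above every control library, and the third control library, with 20 counts, was the lowest. The fold change was 3.69 (log2 1.88 ± 0.251 SE, 95% CI 1.34 to 2.42, adjusted p = 4.11e-05, n = 3 per group, edgeR), and the control libraries held only 50, 44 and 20 counts. On leaving out 1 library the log2 fold change lay between 1.61 and 2.08. TGFB2 shares 1371 exon bases (26.6%) with TGFB2-OT1, a transcript on the same strand that held 18 counts or fewer in each library, and reads in those bases cannot be assigned to either with certainty.

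The antisense neighbour TGFB2-AS1, singled out after its values were seen, lies 556 bases before the TGFB2 gene of the table on the opposite strand and shares no exon base with it. This separation holds only for the gene of the table. The RefSeq start site of TGFB2 used above follows chr1:218345335, which lies within the span of TGFB2-AS1 (chr1:218344196-218345678). TGFB2-AS1 rose as well, from 27, 36 and 31 counts in control to 112, 107 and 127 counts in 25(OH)D (log2 fold change 2.01 ± 0.233 SE, adjusted p = 1.05e-05). Whether the counting used strand is not stated, so reads of unannotated antisense RNA may not be separated from TGFB2 itself. Likewise, reads of TGFB2 RNA from the RefSeq start site may have been counted as TGFB2-AS1, which was not tested.

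TGFB1 (chr19:41301587-41353911, minus strand) was at 20.7, 20.6 and 21.8 CPM in control and at 16.2, 19.0 and 18.3 CPM in 25(OH)D. The groups were apart, but the range of the treated libraries was larger than the gap between the closest libraries of the groups, at 19.0 and 20.6 CPM. TGFB1 stood at a fold of 0.846 (log2 -0.24 ± 0.0784 SE, 95% CI -0.409 to -0.0719, adjusted p = 0.0288). The call was lost without any 1 of the 3 control libraries, at adjusted p-values of 0.0559 to 0.0949, and without 25(OH)D replicate 1, the lowest library, where the log2 fold change was -0.17 and the adjusted p 0.141. TGFB1 shares 215 exon bases (6.64%) with HNRNPUL1 on the opposite strand, an abundant gene that fell from 332 ± 8.97 to 281 ± 5.98 CPM (SD, n = 3; log2 fold change -0.24, adjusted p = 1.72e-04), and the part of these shared bases in the TGFB1 value was not tested.

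The balance between the 2 ligands shifted towards TGFB2. On the RPKM scale (counts scaled by exon length and by library total), the log2 ratio of TGFB2 to TGFB1 within a library was -5.20 ± 0.69 in control and -2.97 ± 0.191 in 25(OH)D (SD, n = 3). It was thus higher by 2.22, with no overlap between groups (two-sided exact permutation p = 0.1, the smallest that 3 libraries against 3 allow). As TGFB2 was higher and TGFB1 lower without overlap, that outcome was fixed in advance and is not a further test. TGFB1 remained the more abundant of the pair in every library. The third ligand of the family, TGFB3, was the most abundant in both groups, at 52.3 ± 1.05 RPKM in control and 93.2 ± 1.11 RPKM in 25(OH)D, against 6.60 ± 0.166 and 5.42 ± 0.477 RPKM for TGFB1 and 0.191 ± 0.0734 and 0.688 ± 0.0392 RPKM for TGFB2.

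At the receptor level both TGFBR2 and BAMBI rose. TGFBR2 (chr3:30606502-30694142, plus strand), the type II receptor that binds TGF-beta and activates the type I receptor, was at 0.432, 0.476 and 0.598 CPM in control and at 3.41, 3.02 and 4.36 CPM in 25(OH)D. The lowest treated library was several times above the highest control library, though the control libraries held only 18, 18 and 22 counts. The fold change was 7.14 (log2 2.84 ± 0.248 SE, 95% CI 2.30 to 3.37, adjusted p = 5.95e-07), and the log2 value stayed between 2.69 and 2.98 on leaving out 1 library. By size of log2 fold change TGFBR2 was number 182 of the 18183 genes tested, the largest change among the 10 genes. Its level stayed low after treatment, at 0.752 ± 0.14 RPKM, against 2.02 ± 0.233 RPKM for its type I partner TGFBR1.

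BAMBI (chr10:28677342-28682939, plus strand), a receptor-like protein that lacks the kinase domain and blocks signalling by the type I receptors, was at 9.46, 8.78 and 9.07 CPM in control and at 30.9, 34.1 and 32.9 CPM in 25(OH)D. The libraries of each group lay close together and the groups were far apart. BAMBI thus rose by a fold of 3.58 (log2 1.84 ± 0.075 SE, 95% CI 1.68 to 2.00), and its adjusted p of 1.49e-10 was the smallest of the 10 genes. With 332 to 394 counts in control and 1072 to 1312 counts in 25(OH)D, BAMBI was the best measured of the 4 genes with the largest changes.

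SMAD3, which carries the TGF-beta signal to the nucleus, rose by less. SMAD3 (chr15:67063763-67195195, plus strand) was at 20.6, 22.3 and 19.0 CPM in control and at 26.9, 29.4 and 29.95 CPM in 25(OH)D. All treated libraries were above all control libraries, and the groups had like spreads. SMAD3 thus rose by a fold of 1.39 (log2 0.48 ± 0.0765 SE, 95% CI 0.311 to 0.640, adjusted p = 2.23e-04), and the log2 value was 0.43 to 0.54 on leaving out 1 library. On log2(RPKM + 1) it was 0.31, which understates changes of genes at this level, and the call was kept.

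Of the inhibitory SMADs, SMAD6 was called lower and SMAD7 did not pass the test. SMAD6 (chr15:66702228-66782848, plus strand), which mainly limits BMP signalling, was at 29.6, 29.5 and 25.8 CPM in control and at 16.0, 15.5 and 17.1 CPM in 25(OH)D. Every treated library was well below the lowest control library. SMAD6 thus fell to a fold of 0.571 (log2 -0.81 ± 0.0775 SE, 95% CI -0.975 to -0.642, adjusted p = 1.56e-06). On leaving out 1 library the log2 value was -0.86 to -0.77.

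SMAD7 (chr18:48919853-48950711, minus strand), which limits both the TGF-beta and the BMP branch, was at 5.52, 4.73 and 4.67 CPM in control and at 3.87, 3.75 and 4.60 CPM in 25(OH)D. The highest treated library almost reached the lowest control library. The fold change of 0.816 did not pass the test (log2 -0.29 ± 0.144 SE, 95% CI -0.602 to 0.0154, adjusted p = 0.137), so the interval covers both no change and a fall somewhat smaller than that of SMAD6. The log2 ratio of SMAD6 to SMAD7 on the RPKM scale was 1.30 ± 0.116 in control and 0.78 ± 0.0912 in 25(OH)D (SD, n = 3), a difference of -0.51 with no overlap (two-sided exact permutation p = 0.1, the smallest possible here).

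The ID genes, which encode dominant negative partners of bHLH transcription factors, moved in opposite directions. ID1 (chr20:31605283-31606515, plus strand) was at 9.70, 8.06 and 10.4 CPM in control and at 2.16, 2.86 and 2.09 CPM in 25(OH)D. The treated libraries were all well below the lowest control library. The fold change was 0.254 (log2 -1.98 ± 0.155 SE, 95% CI -2.31 to -1.65, adjusted p = 1.92e-07), on 305 to 404 counts in control and 68 to 110 counts in 25(OH)D.

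ID3 (chr1:23557918-23559794, minus strand) was at 3.89, 3.44 and 3.20 CPM in control and at 6.09, 7.70 and 6.75 CPM in 25(OH)D. Its treated libraries were all above its control libraries, the reverse of ID1. ID3 thus rose by a fold of 1.95 (log2 0.96 ± 0.14 SE, 95% CI 0.660 to 1.26, adjusted p = 9.32e-05), just under a log2 value of 1.

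ID2 (chr2:8678845-8684453, plus strand), the most abundant of the 10 genes per length, was at 26.6, 26.7 and 25.8 CPM in control and at 34.8, 32.2 and 30.6 CPM in 25(OH)D. The groups were apart by a gap larger than the range within control and slightly smaller than the range within 25(OH)D. The fold change was 1.24 (log2 0.30 ± 0.0662 SE, 95% CI 0.162 to 0.447, adjusted p = 0.00241). The fourth gene of the family, ID4, had 0 to 6 counts in control and 0 in 25(OH)D, too few for a test.

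Within each library the log2 ratio of ID1 to ID3 on the RPKM scale turned over, from 1.96 ± 0.249 in control to -0.995 ± 0.139 in 25(OH)D (SD, n = 3), a difference of -2.95. ID1 was thus the more abundant of the pair in every control library and ID3 in every treated library. The log2 ratio of ID1 to ID2 fell by 2.30 and that of ID3 to ID2 rose by 0.66. The groups did not overlap for any of these ratios, and each had the smallest two-sided exact permutation p that 3 libraries against 3 allow, 0.1. For ID1 to ID3 and ID1 to ID2 this outcome was fixed by the single genes, which moved in opposite directions without overlap. For these ratios the p-value is therefore not a further test.

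**Figure D3:**
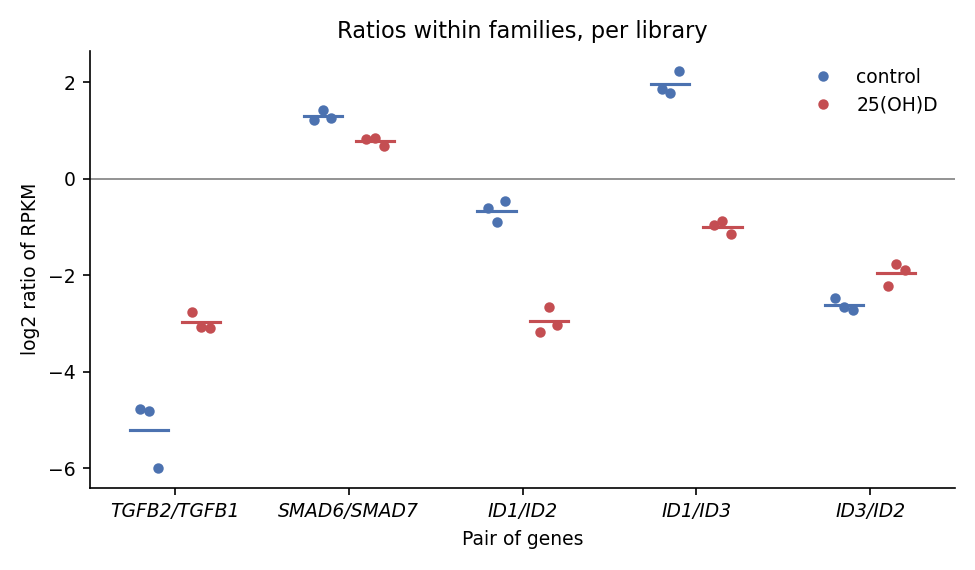
Log2 ratio of the RPKM of 2 genes of 1 family, with a point for each library, control in blue and 25(OH)D in red. All 5 ratios are apart between groups, and the ratio of ID1 to ID3 crosses 0, from a mean of 1.96 to -0.995. For TGFB2 to TGFB1, ID1 to ID2 and ID1 to ID3 the separation follows from the opposite changes of the single genes.

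Per length, the order of the 10 genes in control was ID2, ID1, TGFB1, BAMBI, SMAD6, SMAD3, ID3, SMAD7, TGFB2 and TGFBR2, from 12.1 ± 0.284 RPKM for ID2 to 0.108 ± 0.0179 RPKM for TGFBR2 (SD, n = 3). The libraries of the neighbours ID1 and TGFB1, SMAD3 and ID3, and TGFB2 and TGFBR2 overlapped in that order. After 25(OH)D the order was ID2, BAMBI, TGFB1, ID3, SMAD3, ID1, SMAD6, SMAD7, TGFBR2 and TGFB2, and the overlapping neighbours were ID2 and BAMBI, ID1 and SMAD6, and TGFBR2 and TGFB2. BAMBI went from 3.99 ± 0.154 to 13.9 ± 0.771 RPKM and reached the level of ID2, at 14.5 ± 0.945 RPKM. ID1 went from 7.72 ± 0.962 to 1.89 ± 0.355 RPKM, down to the level of SMAD6.

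**Figure D4:**
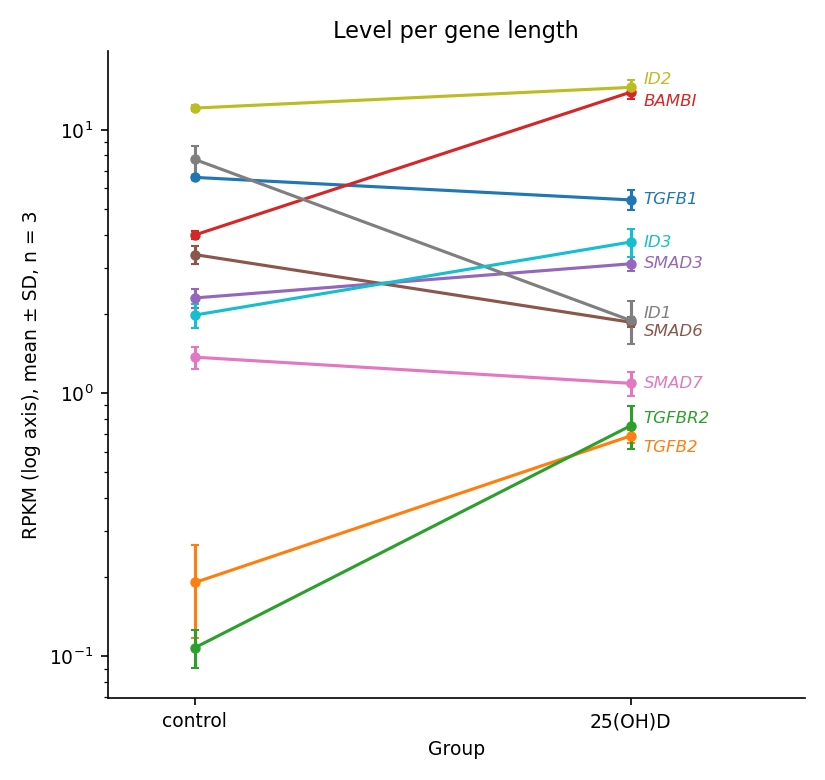
Level of each gene in control and in 25(OH)D as mean RPKM with SD over 3 libraries on a log axis, each gene joined by a line. The lines of ID1 and BAMBI cross, and TGFB2 and TGFBR2 rise but remain the lowest of the 10 genes, under 1 RPKM.

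The rest of the pathway was described by lists by role, also chosen with earlier results of these data known. Of 154 further genes, 90 passed the low-count filter, of which 21 were higher, 21 lower and 48 not called, that is 46.7% called against 33.8% of all genes tested, with a median log2 fold change of 0.01. Of 27 other ligands, 11 were tested, 4 rose and 3 fell. TGFB3 rose from 254 ± 6.28 to 465 ± 3.02 CPM (log2 fold change 0.88, adjusted p = 1.45e-10), and BMP4, a ligand of the BMP receptors, fell from 35.1 ± 1.27 to 22.5 ± 2.40 CPM (log2 -0.64, adjusted p = 1.66e-05). BMP1, which is a procollagen protease in spite of its name, had the largest change of that list, at a log2 fold change of 1.34 (adjusted p = 5.52e-07).

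Of 12 genes of latency and activation, 9 were tested, 3 rose and 4 fell. ITGAV, the integrin subunit that binds latent TGF-beta, rose from 61.1 ± 2.72 to 78.4 ± 0.537 CPM (log2 0.36, adjusted p = 5.93e-05). THBS1, an activator of latent TGF-beta, fell from 1344 ± 18.9 to 799.9 ± 10.7 CPM (log2 -0.75, adjusted p = 2.12e-10), and FURIN, which cleaves the TGF-beta precursor, fell from 14.2 ± 1.04 to 6.43 ± 0.128 CPM (log2 -1.14, adjusted p = 4.14e-07).

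Of 13 receptors and co-receptors tested beside TGFBR2 and BAMBI, 3 rose and 1 fell. TGFBR1 went from 10.6 ± 0.918 to 14.0 ± 1.65 CPM, a log2 fold change of 0.41 (adjusted p = 0.00746) against 2.84 for TGFBR2, and its call was lost in limma on log2 RPKM, at adjusted p-values of 0.0691 and 0.0705. BMPR1B rose from 8 to 23 counts to 38 to 40 counts (log2 1.35, adjusted p = 0.0138). ACVR1B, a type I activin receptor, was lower at a log2 value of -0.29 (adjusted p = 0.0112), and its call was lost without 25(OH)D replicate 1, at an adjusted p of 0.0605. The BMP type II receptor BMPR2 did not pass the test, at 48.96 ± 1.90 CPM in control and 46.1 ± 0.732 CPM in 25(OH)D (adjusted p = 0.239).

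None of the 4 signal-transducing SMADs tested beside SMAD3 was called higher. SMAD2 was at 42.7 ± 1.08 and 47.3 ± 2.62 CPM (log2 0.15, adjusted p = 0.0668, and 0.0322 without 25(OH)D replicate 1), SMAD1 at 8.25 ± 1.18 and 7.72 ± 0.705 CPM (adjusted p = 0.596), and SMAD5 at 21.6 ± 1.24 and 21.3 ± 1.42 CPM (adjusted p = 0.848). SMAD4, the partner shared by both branches, was lower at 13.2 ± 0.536 CPM against 15.8 ± 0.426 CPM in control (log2 -0.25, adjusted p = 0.0228). That call was lost without control replicate 2, control replicate 3, 25(OH)D replicate 2 or 25(OH)D replicate 3, at adjusted p-values of 0.0713 to 0.0834 and in limma (0.0581 and 0.0839).

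Of 18 secreted antagonists only 3 were tested, and TWSG1, which modulates the binding of BMPs to chordin, rose from 7.25 ± 0.861 to 11.3 ± 0.641 CPM (log2 0.64, adjusted p = 3.5e-04). Of 28 intracellular regulators, 5 were higher and 6 lower. TGIF1, a nuclear repressor of SMAD2 and SMAD3, rose from 11.6 ± 0.354 to 16.5 ± 1.60 CPM (log2 0.51, adjusted p = 4.98e-04), and LDLRAD4, a membrane inhibitor of TGF-beta signalling, fell from 54.1 ± 2.49 to 37.3 ± 1.02 CPM (log2 -0.54, adjusted p = 4.3e-06). PPM1A, a SMAD phosphatase, was at 175, 105 and 90.9 CPM in control and at 144, 162 and 240 CPM in 25(OH)D. Its libraries overlapped between the groups, and its call (log2 0.56, adjusted p = 0.0485) was lost with upper-quartile and library-size scaling (adjusted p = 0.0572 and 0.0673), with a filter of 50 counts (0.0522), with a replicate block (0.0595), with DESeq2 (0.273), in limma (0.198 and 0.192) and without control replicate 2, control replicate 3, 25(OH)D replicate 2 or 25(OH)D replicate 3, at adjusted p-values of 0.0559 to 0.207.

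Of 45 listed target genes, 23 were tested, 5 rose and 5 fell. FSTL3, SKIL and PMEPA1, none of them called, are also in the lists of antagonists or regulators above, and are counted once in the total. JUNB rose from 45.2 ± 1.13 to 78.0 ± 0.984 CPM (log2 0.79, adjusted p = 1.57e-08), CDKN1A, the cell cycle inhibitor p21, from 5.74 ± 0.0495 to 13.8 ± 1.87 CPM (log2 1.26, adjusted p = 7.7e-07), and VEGFA fell from 327 ± 12.3 to 214 ± 2.77 CPM (log2 -0.61, adjusted p = 2.06e-08). Of the bHLH factors that ID proteins bind, 2 were tested, and TCF3 (E2A) fell from 98.8 ± 4.15 to 66.8 ± 5.14 CPM (log2 -0.57, adjusted p = 3.48e-06).

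**Figure D5:**
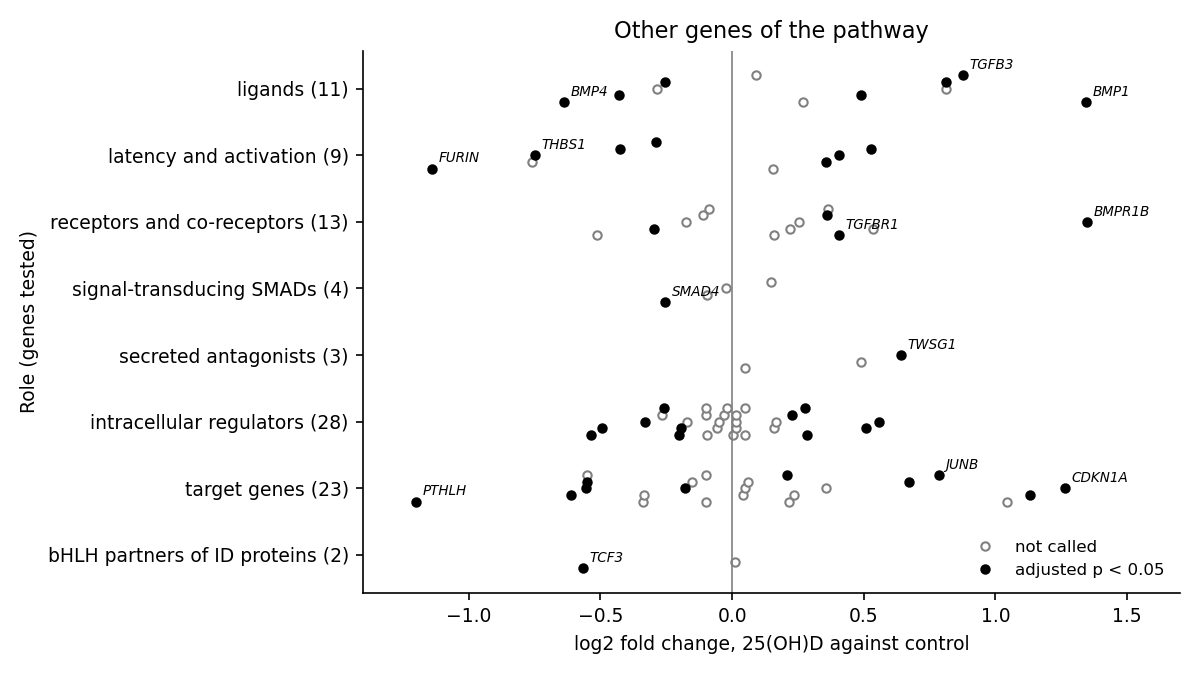
Log2 fold change of the other tested genes of the pathway by role, with filled points for an adjusted p under 0.05 and open points for the rest. Both directions occur among the ligands, the genes of latency and activation, the receptors, the regulators and the targets. BMPR1B, at 1.35, and BMP1, at 1.34, lie furthest up among ligands and receptors.

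For the treatment itself, 8 of 11 vitamin D pathway genes were tested, 4 rose and 1 fell, that is 62.5% called against 33.8% of all genes tested. CYP24A1 had no row in the table. CYP27B1 did not pass the test, at 5.31 ± 0.337 CPM in control and 5.07 ± 0.697 CPM in 25(OH)D (adjusted p = 0.761, edgeR). CDKN1A is in this list as well as among the target genes above, and is counted as higher in both. TRPV6, the intestinal type calcium channel and a target of the vitamin D receptor, rose from 71.6 ± 1.63 to 792 ± 13.3 CPM (log2 3.47, adjusted p = 2.12e-16), above the log2 value of 2.84 for TGFBR2. The receptor gene VDR rose from 80.8 ± 0.739 to 133 ± 6.16 CPM (log2 0.72, adjusted p = 1.94e-08), and RXRA, its nuclear partner, fell from 34.7 ± 2.27 to 26.9 ± 3.39 CPM (log2 -0.37, adjusted p = 0.00429).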

How the data were processed

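mRNA libraries of MDA-MB-453 cells were made with a stranded kit and sequenced as read pairs. The authors deposited a table of raw counts per gene and a table of RPKM values; per the submitters' processing notes Trimmomatic 0.36, featureCounts of Subread 1.5.1 and edgeR 3.12.1 were used on GRCh38. The aligner, the annotation release and the strand setting are not given in the sources used here. The RPKM values equal count over gene length and library total (largest relative difference 2.23e-13). All 6 columns of each table were used, and groups come from the sample titles.

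Counts were tested in R 4.3.3 with edgeR 4.0.16 (TMM, filterByExpr with a minimum count of 10, quasi-likelihood test without covariates), with Benjamini-Hochberg adjustment over 18183 genes. Errors of log2 fold changes are SE and those of levels SD. At this depth 3 counts equal 0.072 to 0.092 CPM. Alternatives were RLE, upper-quartile and library-size scaling, no filter, at least 50 counts in 3 libraries, DESeq2 1.42.0, limma 3.58.1 on log2(RPKM + 1) and log2(RPKM + 0.1), a replicate block and leaving out each library. Halving the counts was added after seeing the data. Ratios used an exact permutation test. The procedure was tested on simulated counts with the same spread for every gene, in which 200 genes without low counts were changed. That simulation does not cover low counts, small changes or genes with a wide spread. Coordinates are those of the files, and promoters come from RefSeq. Python 3.11.15, pandas 2.3.3, numpy 2.4.6 and matplotlib 3.10.9 served the rest.

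The 10 genes and the lists were chosen with earlier results of these data known. Named beside them were, in each list, the called gene with the smallest p in each direction and the called gene with the largest change, and TGFBR1, SMAD1, SMAD2, SMAD4, SMAD5, BMPR2 and VDR. Genes named outside this rule, chosen after their values were seen, are TGFB2-AS1, TGFB2-OT1, HNRNPUL1, ID4, CYP24A1 and CYP27B1. The same holds for those named from the lists of cell type markers. FSTL3, SKIL and PMEPA1 are named only for standing in several lists.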

Additional observations from a re-analysis of the deposited data

How the results depend on the processing

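The calls of 6 genes higher and 3 lower held under all 9 other scalings, filters and tests listed above and with the counts halved, a setting chosen after the data were seen. Without the low-count filter edgeR estimated infinite prior degrees of freedom, so the spread of a single gene did not enter that fit and its p-values say nothing about stability; there SMAD4 had an adjusted p of 0.0541. Leaving out 1 library, TGFB1 ranged from -0.29 to -0.17 and lost its call in 4 of 6 cases, while the other 8 called genes kept theirs and SMAD7 was not called in any case. On log2(RPKM + 1) the log2 fold changes of low genes were smaller: 0.50 for TGFB2, 0.66 for TGFBR2, 0.31 for SMAD3 and 0.67 for ID3. Leaving out 1 library, SMAD1 ranged from -0.163 to 0.0309 and SMAD5 from -0.0639 to 0.0303, so that SMAD1 turned positive without control replicate 2 and SMAD5 without control replicate 2 (0.0303) or 25(OH)D replicate 2 (0.027), none of them called. The replicate numbers did not pair the libraries (correlations of same-numbered deviations -0.0721, -0.012 and -0.046, and no library correlated best with its own number). With a replicate block, 3057 genes were called higher and 2896 lower, against 3138 and 3004, and no call of the 10 genes changed, while PPM1A lost its call (adjusted p = 0.0595). Precision of TGFB2 and TGFBR2 is limited by the 18 to 50 counts of their control libraries, and intervals of 3 libraries against 3 cover these libraries only.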
